A study of Mus musculus with 6 samples.

Results

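The genes described are 191 microRNA genes of the mouse, taken from 18954 genes tested. They are the let-7 genes, whose symbols start with Mirlet7, and those whose symbols are Mir followed by a number from 1 to 500. Mir29a, Mir29b-1, Mir31, Mir218-1 and host transcripts whose symbols end in hg were left out, and the choice used no measured value. Where a gene had several probe sets the brightest one stood for it. Of the genes 19 had values identical to another of them on all arrays, so that the 191 genes gave 178 distinct sets of values. Why the values were identical was not tested. The median signal of these genes was 3.01 on the log2 scale, in a range from 1.19 to 9.05.

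A microRNA is cut from a longer primary transcript. Drosha and DGCR8 release a hairpin in the nucleus, exportin-5 with Ran carries it to the cytoplasm, Dicer trims it, and an Argonaute protein takes up the mature strand. The bases next to its 5′ end, the seed, choose the messenger RNAs that are repressed, so microRNAs with the same seed form a family even when their genes lie on different chromosomes. Many microRNA genes lie within a protein-coding host or in clusters that can be transcribed together.

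Total RNA came from NIT-1, a line of mouse pancreatic beta cells, grown in plates for 24 h and then kept for a further 24 h either in medium alone (control, 0 µmol/L) or with 4 µmol/L cadmium sulphate (CdSO4). Each group had 3 arrays of biotin-labelled RNA. The titles call them biological replicates without saying whether the cultures came from separate passages, and p-values then reflect how far these cultures differ, which may be technical. The probe sets were made for the microRNA gene, and the sources used here do not say whether they read primary transcript, hairpin or mature strand, so a value is called the signal of the gene.

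The sequences below are the mature strands of the genes on which the results turn, credited to the RefSeq annotation of GRCm38.p6, in which 145 of the 191 genes had at least 1 mature sequence. The seed, bases 2 to 8 from the 5′ end, is in capitals. The first group shows genes with the same seed whose signals went different ways or of which only 1 passed the test. Mir128-1 (chr1:128202404-128202424, plus strand) and Mir128-2 (chr9:112118644-112118664, minus strand) make the same mature strand. Mir362 (chrX:7242019-7242042, minus strand) and Mir500 (chrX:7237730-7237754, minus strand) are neighbours. Mir32 lies at chr4:56895272-56895293 and Mir92b at chr3:89227126-89227147, both on the minus strand. Mir200b lies at chr4:156055685-156055706 and Mir200c at chr6:124718324-124718346, both on the minus strand. Mir221 (chrX:19146307-19146329) and Mir222 (chrX:19146901-19146923) are neighbours on the minus strand.
mmu-miR-128-3p: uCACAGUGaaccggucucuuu
mmu-miR-362-5p: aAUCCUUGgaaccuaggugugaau
mmu-miR-500-5p: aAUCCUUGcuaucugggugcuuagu
mmu-miR-32-5p: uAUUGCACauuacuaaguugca
mmu-miR-92b-3p: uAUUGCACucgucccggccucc
mmu-miR-200b-3p: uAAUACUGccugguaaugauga
mmu-miR-200c-3p: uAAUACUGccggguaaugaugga
mmu-miR-221-3p: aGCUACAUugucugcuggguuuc
mmu-miR-222-3p: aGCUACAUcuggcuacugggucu

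The second group shows the other genes whose changes are described one by one, and let-7g and miR-98 as examples of the let-7 seed. Mir186 lies at chr3:157544285-157544306, Mir103-2 at chr2:131288103-131288125, Mir335 at chr6:30741314-30741336 and Mir9-3 at chr7:79505279-79505301, all on the plus strand. Mir350 lies at chr1:176772342-176772363 on the minus strand.
mmu-miR-186-5p: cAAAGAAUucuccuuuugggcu
mmu-miR-103-3p: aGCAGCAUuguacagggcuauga
mmu-miR-350-3p: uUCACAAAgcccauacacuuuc
mmu-miR-335-5p: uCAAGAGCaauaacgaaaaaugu
mmu-miR-9-5p: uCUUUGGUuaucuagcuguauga
mmu-let-7g-5p: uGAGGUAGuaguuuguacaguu
mmu-miR-98-5p: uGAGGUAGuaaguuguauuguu

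Cadmium and control arrays were compared for all 18954 genes with limma, and a gene is called where its adjusted p, by Benjamini-Hochberg over all of them, was under 0.05. Of the 191 microRNA genes 32 were called, against 12.2% of all genes. Higher with cadmium were 22 of the 191 (11.5%), against 6.47% of all genes, and lower were 10 (5.24%), against 5.72%. Counting genes with identical values once, 14 of 178 were higher (7.87%) and 10 were lower (5.62%), shares near those of all genes. The higher genes made up 68.8% of the called microRNA genes on the deposited scale, 52.2% with arrays centred on their medians and 56.0% with quantile normalization, against 53.0%, 35.5% and 39.9% of all called genes. Over distinct sets of values the 3 shares were 58.3%, 42.1% and 47.6%.

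The arrays of the groups did not overlap for 66 of the 191 genes, or 34.5%, against 35.9% of all genes. The median change, cadmium minus control, was 0.045 for the microRNA genes and 0.044 for all genes, on the log2 scale. Changes of at least 0.5 in either direction were found for 16 of the 178 distinct genes, or 8.99%, against 4.29% of all genes. Of the 16, 6 were called lower and 5 higher, and the rest were not called. The share among genes of similarly low signal was not computed.

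**Figure D1:**
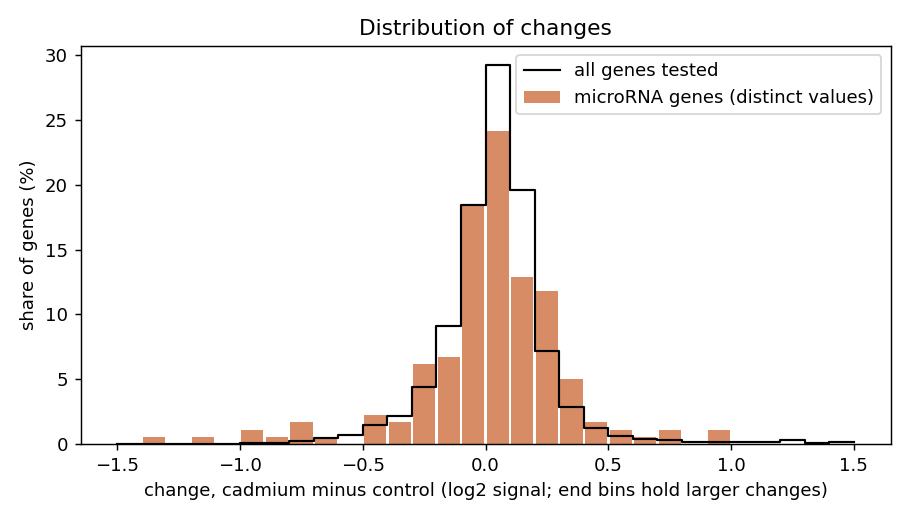
Share of genes (y axis, percent) by change in log2 signal, cadmium minus control (x axis), for the 178 distinct microRNA genes (filled bars) and all 18954 genes tested (line). Both centre near 0.04, and 8.99% of the microRNA genes against 4.29% of all genes changed by at least 0.5.

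Most of the signals were low. The bound for background was 6.18, below which 95% of the negative control probes of an array lay, averaged over the arrays. Both group means exceeded it for 12 of the 191 genes, 1 mean did for 7 and none for 172, and of the 32 called genes 27 had both means below it. For these the array gave a difference in signal and no fold. Among all genes with both means below the bound, 4.96% were called higher and 4.45% lower, and among genes with a mean above it 16.6% and 14.2%. Of the 361 other microRNA genes by symbol, 9.42% were called higher and 4.43% lower. Markers of the labelled cell type were below the bound as well. The 7 beta cell markers measured under a single name had group means from 1.76 (Iapp, amylin) to 5.29 (Ins2, insulin), and none was called. The fibroblast collagen Col3a1 was above the bound, at 9.07 in control and 8.06 in cadmium arrays, and was called lower, while Vim and Ptprc were below it and not called. The part of such markers in the changes below was not tested.

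The 2 largest decreases belonged to genes whose control signals were above the bound. Mir186 is a vertebrate microRNA made from a gene inside Zranb2. Its control arrays read 7.64, 7.66 and 7.11, and its cadmium arrays 6.78, 5.71 and 5.95. Every cadmium array was below every control array, and cadmium replicate 1 was the nearest to them. The change was -1.33 ± 0.28 (SE, n = 3 per group, adjusted p = 0.0249), a signal at least 2.19-fold lower when each cadmium array is taken at its own value or, if higher, at its own negative control percentile. The call was lost without cadmium replicate 2 or 3 or without control replicate 1 or 2, where the adjusted p reached 0.0918.

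Mir128-1 makes miR-128, a microRNA best known from neurons. It read 6.38, 6.46 and 6.52 in control arrays and 5.62, 5.09 and 5.07 in cadmium arrays. The groups did not overlap, with cadmium replicate 1 again the highest of its group. The change was -1.19 ± 0.14 (SE, n = 3 per group, adjusted p = 0.00309), at least 1.22-fold lower, and the adjusted p stayed under 0.05 in every alternative fit and without any single array.

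Below the bound, 4 further genes were called lower with differences of over 0.5, and none of them lost its call when any array was left out. Mir362, an X-linked gene, read 4.54, 4.23 and 4.03 in control and 3.45, 3.17 and 3.35 in cadmium arrays, a difference of -0.94 ± 0.13 (SE, adjusted p = 0.00577). Mir32, of the miR-92 seed family, read 5.47, 5.19 and 5.28 in control and 4.56, 4.06 and 4.63 in cadmium arrays, a difference of -0.90 ± 0.16 (SE, adjusted p = 0.0118). In both, every cadmium array was below every control array.

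Mir103-2 makes miR-103, which is known to dampen insulin signalling in liver and fat. It read 4.43, 4.19 and 4.61 in control and 3.71, 3.44 and 3.76 in cadmium arrays, a difference of -0.77 ± 0.13 (SE, adjusted p = 0.00995). Mir350 read 3.65, 3.56 and 3.51 in control and 2.87, 2.83 and 3.03 in cadmium arrays, a difference of -0.67 ± 0.07 (SE, adjusted p = 0.00205). Neither gene's groups overlapped.

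The remaining 4 called decreases were under 0.5. Mir200b, of the family that keeps epithelial cells from taking on mesenchymal features, went from 2.96 ± 0.10 to 2.52 ± 0.03 (mean ± SD, n = 3; adjusted p = 0.00667), and kept its call without any single array. Mir105 (adjusted p = 0.0452), Mir124a-2, of the neuronal miR-124 family (0.0226), and Mir298 (0.0423) had group means between 2.41 and 3.90. Each of these 3 lost its call in at least 3 of the 6 comparisons with an array left out, with adjusted p of up to 0.118, 0.0834 and 0.125.

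The largest increases were all measured below the bound. Mir335, which lies in the imprinted gene Mest, read 4.55, 4.65 and 4.93 in control and 5.77, 5.65 and 5.52 in cadmium arrays. Every cadmium array was above every control array, and the difference was 0.93 ± 0.11 (SE, n = 3 per group, adjusted p = 0.0029). Mir9-3, one of the genes for miR-9, which is abundant in the nervous system, read 2.23, 2.21 and 2.43 in control and 2.87, 3.22 and 3.08 in cadmium arrays. Its groups did not overlap either, and the difference was 0.76 ± 0.10 (SE, adjusted p = 0.00451). Both calls held in every alternative fit that tested the gene and without any single array.

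Mir221, often raised in proliferating cells, read 2.45, 2.65 and 2.52 in control and 4.12, 3.28 and 3.15 in cadmium arrays, a difference of 0.98 ± 0.24 (SE, adjusted p = 0.0379). Cadmium replicate 1 stood well above the other cadmium arrays, and the call was lost without cadmium replicate 2 or without any 1 of the control arrays. Over the 178 distinct genes, this array exceeded all 5 others by at least 0.5 for 4 genes, Mir221 and the uncalled Mir125b-1, Mir182 and Mir10b, against 1 gene for control replicate 3 (Mir421), 1 for cadmium replicate 2 (Mir219b) and 0 for the remaining arrays. The gap of 0.5 was chosen after the values were seen. Mir125b-1 read 5.16 on it and 3.89 and 3.88 on the other cadmium arrays, Mir182 read 4.01 against 3.31 and 3.37, and Mir10b, named after its values were seen, read 4.67 against 3.18 and 3.41. What set this array apart was not tested.

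Below the bound, increases were also found for Mir224 and Mir500. Mir224, in the gene of a GABA receptor subunit, read 4.56, 4.95 and 5.20 in control and 5.48, 5.67 and 5.63 in cadmium arrays, a difference of 0.69 (adjusted p = 0.0288). Mir500 read 4.34, 4.33 and 4.59 in control and 4.73, 4.93 and 4.99 in cadmium arrays, a difference of 0.46 (adjusted p = 0.0244). The groups did not overlap in either gene, and both calls were lost without cadmium replicate 2 or 3 or without control replicate 2, and that of Mir500 also without control replicate 1.

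Of the genes called higher, 3 had at least 1 group mean above the bound. Mir486, a microRNA of red cell and muscle, read 5.99, 5.98 and 6.00 in control and 6.25, 6.36 and 6.32 in cadmium arrays, at least 1.09-fold higher (change 0.32, adjusted p = 0.0091), and kept its call in every alternative fit and without any single array. Mir483, in Igf2, read 6.03, 6.02 and 5.94 and then 6.31, 6.23 and 6.21, at least 1.04-fold higher (0.25, adjusted p = 0.0296). Mir467h, measured above the bound on all arrays, read 7.86, 7.67 and 7.72 and then 8.13, 8.0 and 7.99, or 1.22-fold higher (0.29, adjusted p = 0.0388). The groups did not overlap in any of the 3, but these increases were small. Mir483 and Mir467h were no longer called after arrays were centred, quantile normalization took the change of Mir467h to 0.14 (adjusted p = 0.33), and they lost their calls in 6 and 5 of the 6 comparisons with an array left out.

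**Figure D2:**
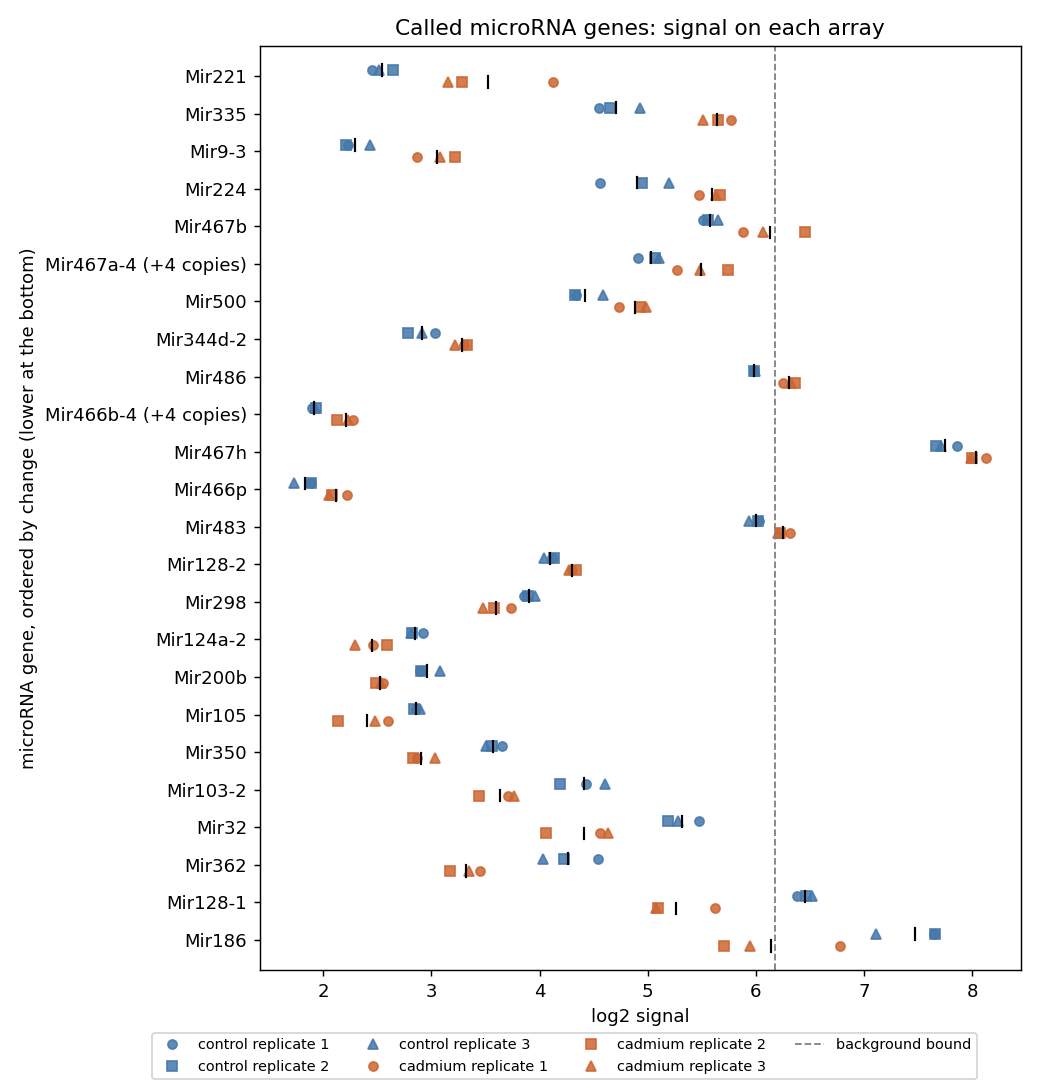
Log2 signal (x axis) of the 24 distinct called microRNA genes (rows, ordered by change) on each of the 3 control and 3 cadmium arrays, with a short line at each group mean and the background bound of 6.18 dashed. Groups do not overlap in any row, and most points lie left of the bound. To its right are Mir467h, the control arrays of Mir186 and Mir128-1, the cadmium arrays of Mir486 and Mir483, cadmium replicate 1 of Mir186 and cadmium replicate 2 of Mir467b.

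Changes of the bright microRNA genes that were not called reached 0.32 (Mir181d), similar in size to those of the bright genes called higher. The brightest, Mir466f-1, had means of 8.98 and 9.11 (adjusted p = 0.385). Mir139, whose product is made from a gene inside Pde2a, read 7.44, 7.29 and 7.43 in control and 7.85, 7.70 and 7.55 in cadmium arrays, without overlap and 1.24-fold higher (adjusted p = 0.0582). Mir455 (6.89 to 7.14, adjusted p = 0.165) and Mir383 (6.45 to 6.59, adjusted p = 0.209) overlapped. Mir181d, with only its cadmium mean above the bound, went from 6.05 to 6.37 (adjusted p = 0.059), and Mir297a-3 likewise from 5.99 to 6.20 (adjusted p = 0.093). Mir466d, Mir466k, Mir466m, Mir467c and Mir467e, with both means above the bound, differed by 0.03 to 0.18 (adjusted p from 0.367 to 0.846).

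Genes known in beta cells or in stress were mostly not called, but only 12.2% of all genes were called, so nothing is read from this. Those named in this paragraph are uncalled ones. Mir375, the most abundant microRNA of islets and a brake on insulin secretion, read 4.66, 4.78 and 4.90 in control and 4.62, 4.53 and 4.43 in cadmium arrays, a difference of -0.25 (adjusted p = 0.0854). Its groups did not overlap, although control replicate 1 and cadmium replicate 1 were close. Mir7-2, a gene of the islet microRNA miR-7, was at 4.83 and 4.91 (adjusted p = 0.53). Mir210, the classic target of hypoxia-inducible factor, was at 6.16 and 6.21 (adjusted p = 0.589). The p53 targets Mir34a, Mir34b and Mir34c differed by 0.06, 0.12 and 0.34 (adjusted p from 0.217 to 0.8).

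The let-7 family, which represses growth genes in differentiated cells, gave 0 calls among 6 genes, which are Mirlet7a-2, Mirlet7f-2, Mirlet7g, Mir98, Mir7j (let-7j) and Mir7k (let-7k). The 6 differences lay between -0.22 and 0.18 and their median was 0.0003. Mirlet7g read 3.84, 3.70 and 3.61 in control and 3.81, 3.21 and 3.47 in cadmium arrays (adjusted p = 0.36), and Mir98 read 4.30, 4.41 and 4.25 and then 4.12, 4.20 and 4.15 (adjusted p = 0.12). Mirlet7g overlapped between groups and Mir98 did not. All 6 lay below the bound, where 4.96% of all genes were called higher and 4.45% lower. Nothing is read from 0 calls among so few genes.

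Other families, each of few genes, also gave no call, where 12.2% of all genes were called, so nothing is read from this. The miR-30 seed GUAAACA was held by 5 genes (Mir30a, Mir30c-1, Mir30c-2, Mir30e and Mir384), with differences from -0.27 to 0.25. The 4 Mir181 genes, with the seed ACAUUCA, differed by -0.18 to 0.32. Among the 3 genes with the miR-15 seed AGCAGCA, Mir15b read 3.36, 3.54 and 2.81 in control and 1.62, 2.51 and 2.72 in cadmium arrays, a difference of -0.96 ± 0.30 (SE, adjusted p = 0.0872). Its groups did not overlap, but the spread within each group was wide, with an SD of 0.38 in control and 0.58 in cadmium arrays.

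Families whose genes went different ways could be followed through the shared seeds printed above. Of the miR-128 genes, Mir128-1 fell while Mir128-2 rose from 4.11, 4.13 and 4.04 to 4.30, 4.34 and 4.27 (0.21, adjusted p = 0.0415), and no array overlapped. The difference between their changes was -1.40 ± 0.19 (SE). The call for Mir128-2 was lost whichever array was left out and also after centring or quantile normalization. Of the genes with the seed AUCCUUG, Mir362 fell and Mir500 rose although they are neighbours, and their changes differed by -1.40 ± 0.26 (SE).

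In other families 1 gene passed the test. Within the AUUGCAC family Mir32 fell, while Mir92b read 5.52, 5.44 and 5.35 in control and 5.56, 5.84 and 5.70 in cadmium arrays (adjusted p = 0.08), and their changes differed by -1.17 ± 0.26 (SE). The other 3 genes of this seed, Mir363, Mir367 and Mir92-2, differed between groups by -0.09 to 0.05. Mir200b fell while Mir200c was at 3.07 and 3.11 (adjusted p = 0.761), a difference between changes of -0.48 ± 0.08 (SE). Mir221 rose by 0.60 ± 0.15 (SE) more than Mir222, whose own difference was 0.38 (adjusted p = 0.16). Within the seed AUAUAAC, Mir344d-2 rose from 2.91 to 3.28 (adjusted p = 0.0216), by 0.40 ± 0.11 (SE) more than Mir344d-1, and Mir344e was not called.

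Each of these differences between changes had arrays that did not overlap and an exact permutation p of 0.1, two-sided, the smallest that 3 arrays against 3 allow. The pairs were chosen after the values were seen, each with a called gene, so nothing is read from their lack of overlap. With the member and host comparisons below, 19 were made, and the smallest p adjusted over them was 0.112. This test therefore could not place any of them past 0.05, whatever their size.

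**Figure D3:**
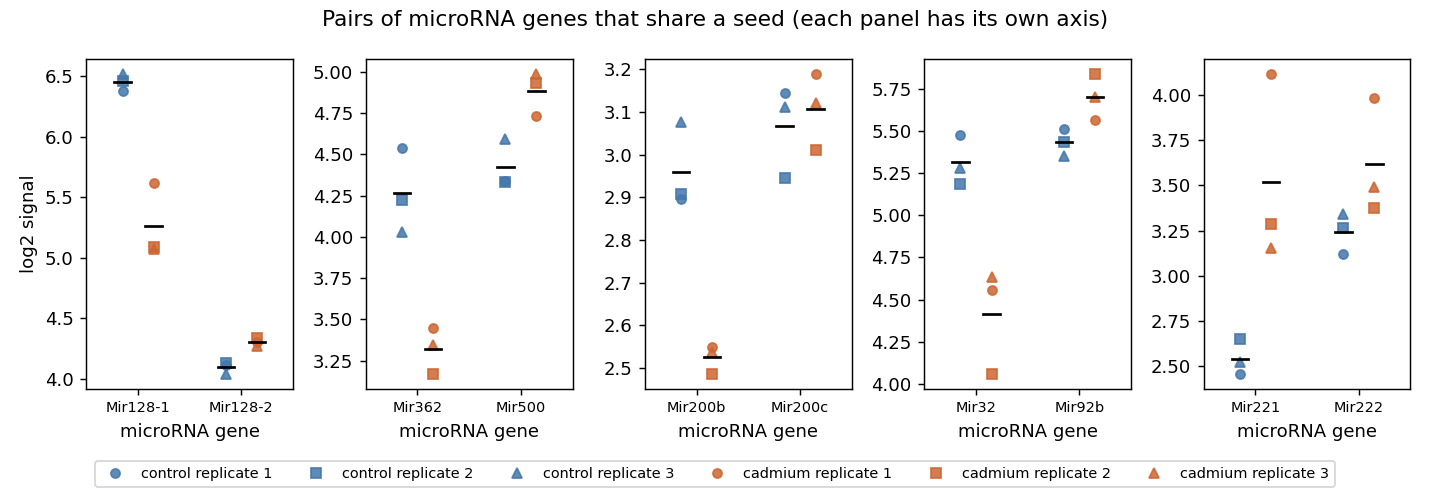
Log2 signal (y axis, a separate scale in each panel) on the 3 control and 3 cadmium arrays for 5 sets of genes that share a seed, with group means as lines. In the first panel Mir128-1 is lower on every cadmium array and Mir128-2 higher on every one, and in the second panel Mir362 is lower and Mir500 higher.

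Strand was taken from hairpin entries, found for 138 of the genes. Of these 62 fell into 24 clusters, taken as genes within 10 kb of the next on the same strand. The other 53, all 38 of the Sfmbt2 group described below among them, were not placed. Some of the 53 had a strand for their mature sequence only, such as Mir181c, which lies beside Mir181d, so clusters can have been missed. The 3 largest of these clusters, with 5 genes each, had 0 calls. Their genes lay below the bound, where 4.96% of all genes were called higher and 4.45% lower, so nothing is read from this. The Mir302b to Mir367 cluster, known from pluripotent stem cells, differed by -0.09 to 0.02 at group means of at most 2.68. The X-linked cluster from Mir363 to Mir18b, a relative of miR-17-92, differed by -0.23 to 0.05, and the X-linked Mir470 to Mir465 cluster, known from the male germ line, by -0.09 to 0.19.

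In those of the 24 clusters that held a called gene, no neighbour was called in the same direction. The neighbours were few, and of all genes only 6.47% were called higher and 5.72% lower. In the Mir500, Mir362 and Mir188 cluster 1 gene rose, 1 fell and Mir188 was at 5.05 and 5.01 (adjusted p = 0.78). Beside Mir221, Mir222 went the same way without a call, from 3.24 to 3.62 without overlap (adjusted p = 0.16). Beside Mir224, Mir452 was at 1.38 and 1.52 (adjusted p = 0.23). Beside Mir200b, Mir200a was at 3.52 and 3.38 (adjusted p = 0.445), beside Mir298, Mir296 was at 4.78 and 4.75 (0.81), and beside Mir344d-2, which rose by 0.37 (0.0216), Mir344d-1 was at 2.33 and 2.30 (0.77). All of these neighbours lay below the bound.

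Host genes were set beside the microRNA genes they contain on the same strand. A host was found for 69 genes, and 38 hosts were measured. Of these hosts 0 were called higher by limma and 4 lower, where 6.47% and 5.72% of all genes were, and their median change was 0.007. The 4 were Tmem245, a membrane protein that holds Mir32, Pank2, a pantothenate kinase of coenzyme A synthesis that holds Mir103-2, Cep170, a centrosomal protein that holds Mir350, and Nfyc, a subunit of the CCAAT-binding factor NF-Y that holds Mir30c-1 and Mir30e. Nfyc went from 7.01 to 6.61 (1.32-fold lower, adjusted p = 0.0278), a call lost without cadmium replicate 2 or 3 or control replicate 2, and its 2 microRNA genes were not called.

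In 3 of the 7 lower genes with a measured host the host was also called lower. Tmem245 read 4.37, 4.37 and 4.30 in control and 3.96, 3.74 and 3.78 in cadmium arrays (-0.52, adjusted p = 0.00435). Pank2 went from 5.50 to 5.10 (-0.40, adjusted p = 0.0336) and Cep170 from 7.04 to 6.73, 1.24-fold lower (adjusted p = 0.0295). Tmem245 and Pank2 lay below the bound and Cep170 above it. No array of these 3 hosts overlapped between groups, and Tmem245 kept its call without any single array, while Pank2 and Cep170 lost theirs in 5 and 4 of the 6 comparisons with an array left out, with adjusted p of up to 0.116 and 0.103. The change of Mir32 differed from that of Tmem245 by -0.38 ± 0.18 (SE) and that of Mir103-2 from Pank2 by -0.37 ± 0.23 (SE), with overlapping arrays and an exact permutation p of 0.2 for each. For Mir350 and Cep170 the difference was -0.35 ± 0.11 (SE), without overlap.

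In the other 4 the host was not called. Zranb2, a splicing regulator, read 7.06, 7.08 and 6.97 in control and 7.08, 7.06 and 7.06 in cadmium arrays (adjusted p = 0.729) while Mir186 inside it fell. The changes of Mir186 and Zranb2 differed by -1.36 ± 0.35 (SE). R3hdm1, host of Mir128-1, was at 6.60 and 6.46 (adjusted p = 0.264), and the changes differed by -1.05 ± 0.13 (SE). Both hosts were above the bound on every array and overlapped between groups. The microRNA genes inside them did not overlap, but neither did any other called gene, so nothing is read from this contrast. Clcn5, an endosomal chloride transporter that holds both Mir362 and Mir500, went from 5.37 to 5.08 (adjusted p = 0.113), and Gabra3, host of Mir105, differed by -0.01.

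None of the 6 higher genes with a measured host had a host called higher by limma. Mest read 5.79, 5.75 and 5.38 in control and 5.78, 5.90 and 5.90 in cadmium arrays (0.22, adjusted p = 0.243), and Mir335 rose by 0.71 ± 0.27 (SE) more. Changes in the other hosts, Mir9-3hg, Gabre, Clcn5, Igf2 and Arpp21, lay between -0.29 and 0.10. Arrays did not overlap in 11 of the 13 differences between a called gene and its host, each with the smallest exact permutation p of 0.1. Every called gene was already without overlap by itself, so this count follows in part from the choice of genes. Nothing is read from it.

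**Figure D4:**
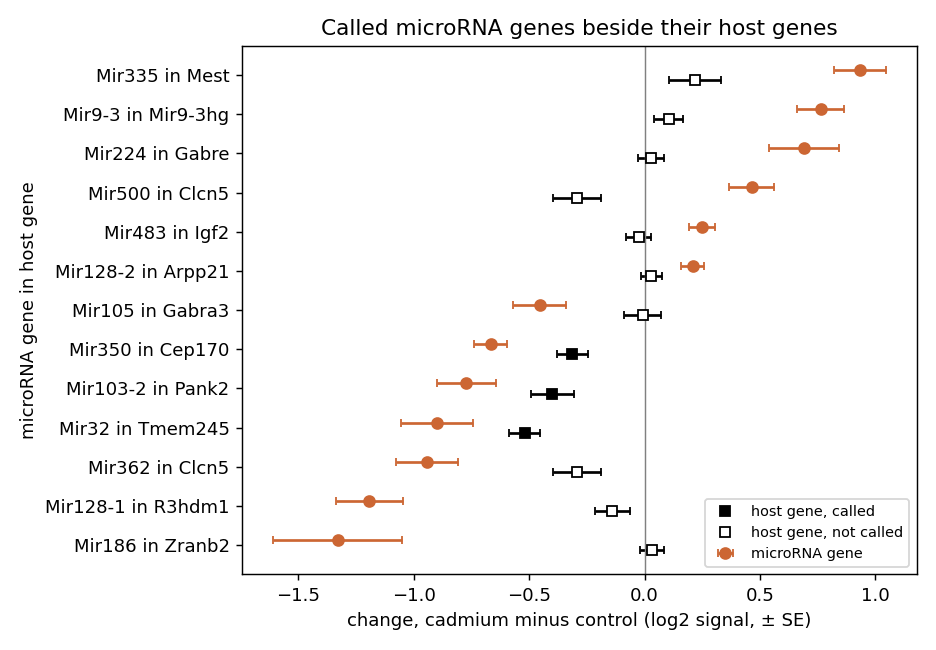
Change in log2 signal, cadmium minus control with its standard error (x axis), of the 13 called microRNA genes with a measured host (circles) and of that host (squares, filled where called). Tmem245, Pank2 and Cep170 lie to the left with their microRNA genes, while Zranb2 lies at 0.03 beside Mir186 at -1.33.

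The largest local group lay within the span of Sfmbt2 on chromosome 2, a gene of a Polycomb-related protein whose intron holds a long imprinted array of repeated microRNA genes. It was singled out after its values were seen, and strand was not used. It held 38 of the genes, of the Mir297, Mir466 and Mir467 groups, in 26 distinct sets of values. Of these 12 were called higher, which came from 4 distinct sets, and 0 were lower, where 6.47% and 5.72% of all genes were called. As the group was chosen on these values, nothing is read from its count.

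Mir467b read 5.51, 5.56 and 5.66 in control and 5.89, 6.46 and 6.06 in cadmium arrays (0.56, adjusted p = 0.0406). The shared values of Mir467a-1, Mir467a-4, Mir467a-5, Mir467a-7 and Mir467a-8 were 4.91, 5.07 and 5.10 in control and 5.27, 5.74 and 5.48 in cadmium arrays (0.47, adjusted p = 0.0461). These 5 genes are 1 measurement, and in both sets cadmium replicate 2 was the highest. The shared values of Mir466b-1, Mir466b-4, Mir466b-5, Mir466b-6 and Mir466b-7 went from 1.92 to 2.21 (0.29, adjusted p = 0.0175), and those of Mir466p from 1.84 to 2.12 (0.28, adjusted p = 0.0441).

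All 38 differences were above 0 on the deposited scale, from 0.005 to 0.56 with a median over distinct sets of 0.157. Of all genes 62.6% were above 0. The group was chosen on these values and its genes are repeated copies, so nothing is read from this share or from those that follow. After each array was centred on its median 20 of the 26 distinct sets were above 0 (all genes 48.8%), the median was 0.108 and 1 was called. After quantile normalization 18 of 26 were above 0 (all genes 50.5%), the median was 0.126 and 2 were called. Without cadmium replicate 3, control replicate 1 or control replicate 2 the distinct sets called numbered 0, and the median lay between 0.079 and 0.172. The brightest genes of the array, Mir466f-1, Mir466f-3 and Mir466h, measured above the bound throughout, differed by 0.13, 0.12 and 0.04 and were not called. Sfmbt2 itself was at 2.88 and 2.97 (adjusted p = 0.286).

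**Figure D5:**
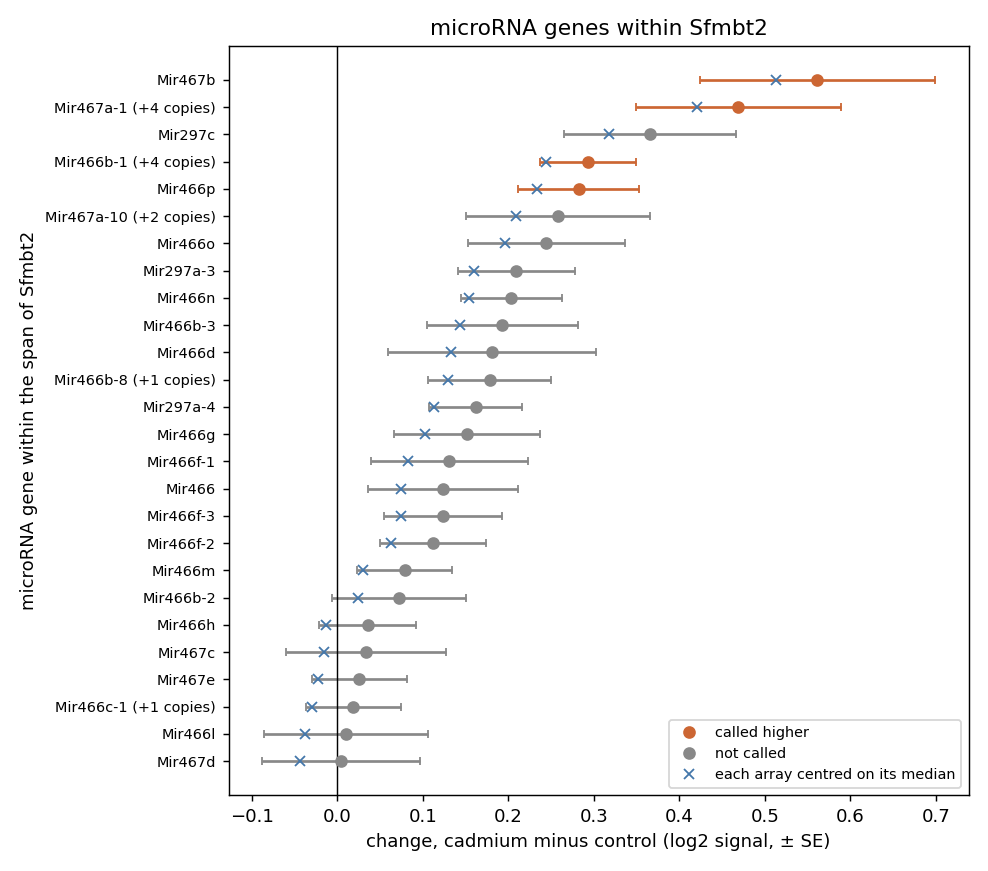
Change in log2 signal, cadmium minus control with its standard error (x axis), of the 26 distinct sets of microRNA genes within Sfmbt2 (rows), coloured where called higher, and the same change after centring each array (crosses). All 26 points lie above 0 on the deposited scale, and 20 of 26 crosses do.

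Genes that make, load or degrade microRNAs were read from a list of 52, and 23 had a probe set that names no other gene. Of these 2 were called higher and 6 lower, and their median change was -0.15, where 6.47% and 5.72% of all genes, and 16.6% and 14.2% of genes with a mean above the bound, were called. Srrt (ARS2), which links capped primary transcripts to Drosha, read 6.40, 6.52 and 6.52 in control and 7.65, 7.46 and 7.45 in cadmium arrays, 2.06-fold higher without overlap (adjusted p = 0.00149). Ran, the GTPase of nuclear export, was 1.31-fold higher (7.33 to 7.72, adjusted p = 0.0289). Its call was lost without cadmium replicate 2 or 3 or any 1 of the control arrays, and that of Srrt held without any single array.

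Among tailing and turnover genes 5 of 11 were lower. Xrn1, the cytoplasmic 5′ to 3′ exonuclease, read 5.29, 5.36 and 5.32 in control and 4.74, 4.62 and 4.64 in cadmium arrays (-0.66, adjusted p = 0.00149). Tut4, which adds uridine to let-7 precursors, read 5.13, 5.25 and 5.26 and then 4.68, 4.55 and 4.58 (-0.61, adjusted p = 0.00183). Groups did not overlap in either, and both calls held without any single array, but both genes lay below the bound. Snd1, a nuclease that binds silencing complexes, was 1.44-fold lower (adjusted p = 0.0308), Tent4b, a poly(A) polymerase, 1.19-fold lower (0.0284) and the nuclear exonuclease Xrn2 1.19-fold lower (0.0342). In the silencing complex Fmr1, an RNA-binding partner of Argonaute, was 1.29-fold lower (0.0289), while Ago1, an Argonaute, was at 6.40 and 6.19 (adjusted p = 0.0812) and Ago3, Ago4 and Tnrc6a were not called. The 4 calls among Snd1, Tent4b, Xrn2 and Fmr1 were lost in 3 to 6 of the 6 comparisons with an array left out, and the 6 decreases became 2 without cadmium replicate 2, control replicate 1 or control replicate 2, and 3 without control replicate 3. Drosha, Dgcr8, Dicer1 and Ago2 were not analysed here.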

How the data were processed

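Biotin-labelled total RNA of 6 NIT-1 cultures was read on arrays, 3 per group, with groups and replicate numbers from the sample titles. The table deposited by the authors holds 1 value per transcript cluster and array. Its log2 scale is inferred from the values deposited by the authors. Not given in the sources used here are the base of the logarithm, the normalization, the software and the build of the probes. Folds therefore hold only for base 2. The table had 46478 rows, 39746 of them transcript clusters and 6732 control probes. Columns that no sample could be given numbered 0. The median of all clusters was 3.34 to 3.35 on control and 3.39 to 3.40 on cadmium arrays, and the values were used without further scaling. With 3 arrays a group, precision is limited by their number.

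The platform annotation, with symbols updated through the RefSeq table, gave 19181 clusters with 1 gene, 964 with several and 19601 with none. Names of the microRNA genes described were also carried by 31 clusters with several genes, which were not used. The fit used limma 3.58.1 under R 4.3.3, with lmFit and eBayes, a two-sided test and no covariate. P-values were adjusted by Benjamini-Hochberg over 18954 genes. A host is a gene of another kind whose span holds the microRNA gene on the same strand of the RefSeq table. Hosts were sought only for the 138 genes with a hairpin entry. Differences between the changes of a microRNA gene and another gene were computed per array and tested with an exact permutation test, an analysis added after the data were seen.

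The members, lists and naming rule were chosen with earlier results of these data known. Named are called genes, genes above the background bound, the 6 largest changes each way, their clusters, the 3 largest clusters and fixed beta cell and stress genes. Of this last set, genes with no single-gene probe were not analysed here. The fold of a gene with 1 mean above the bound sets the brighter mean against, on each array of the dimmer group, the higher of its own value and that array's own 95th percentile of negative controls, not the averaged bound. Alternatives covered centring, quantile normalization, filters on level, the mean of a gene's probes, array weights, the variance model, a block for the replicate number, leaving out each array and a threshold of 0.01. The scripts were first tested on simulated data. Samples with the same number did not deviate together, at correlations of -0.11, 0.06 and -0.11. Figures were drawn with matplotlib 3.10.9.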

Additional observations from a re-analysis of the deposited data

How the results depend on the processing

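Of the 24 distinct called genes, 9 kept an adjusted p under 0.05 in every alternative fit that tested them and without any single array (Mir128-1, Mir362, Mir32, Mir103-2, Mir350, Mir200b, Mir335, Mir9-3 and Mir486), although Mir32 missed 0.01 on the deposited values and most of the 9 were too dim for the filters on level, and 15 lost it without at least 1 array. The 22 genes called higher became 12 after arrays were centred, 14 after quantile normalization, 30 with array weights, 3 at a threshold of 0.01, and 4 to 23 with an array left out. The filters on level tested fewer genes. Of 19 above the background bound 5 were called higher, against 3 of them (Mir486, Mir483 and Mir467h) on the deposited values. Of 69 at or above the median gene level 16 were called higher. The 10 called lower became 11 after centring or quantile normalization, 14 with array weights, 5 at 0.01, and 6 to 12 with an array left out. Most of the 10 were too dim for the filters on level. Those tested kept their calls, which were 2 above the bound (Mir186 and Mir128-1) and 3 at or above the median level (these and Mir32). All 12 higher and 10 of the lower genes called after centring were among those called on the deposited values. The titles do not say whether samples with the same replicate number were paired. With the replicate number as a block, 12 genes were higher and 8 lower. The block also left 1 biogenesis gene higher and 2 lower, and 2 hosts lower. With an array left out, biogenesis genes called higher numbered 1 to 2 and lower 2 to 6 (10 after centring), and hosts called lower 1 to 5. The median change of 0.045 became 0.131 over genes above the bound and 0.120 over genes at or above the median level, where fewer genes were counted. No direction of a called gene reversed. Signals below the bound limit 27 of the 32 called genes to differences in signal, and the causes of these dependences were not tested.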
